A study of Homo sapiens with 6 samples.

Results

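The replication-dependent core histone genes encode the H2A, H2B, H3 and H4 proteins that package newly made DNA. They were taken by gene name: every name of the form HIST1 to HIST4 followed by H2A, H2B, H3 or H4 and a letter or number code, with pseudogene names containing PS left out. This gave 70 of the 60675 genes in the deposited tables, with 17 H2A, 23 H2B, 15 H3 and 15 H4 genes, and 11 PS names were left out. By name, 49 belong to the HIST1 group, 16 to HIST2, 4 to HIST3 and 1 to HIST4. The GENCODE 29 annotation (GRCh38) places 49 on chromosome 6, 19 on chromosome 1 and 1 on chromosome 12, and holds no entry for the identifier of HIST2H2BC. Matched by identifier, it lists 5 of the 70 as pseudogenes (HIST2H2BA, HIST2H2BB, HIST2H2BD, HIST3H2BA and HIST2H3DP1), and the type of HIST2H2BC was not read.

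The RNA came from OCI-AML2, a human acute myeloid leukaemia cell line, and was precipitated with J2, an antibody against double-stranded RNA. Short hairpin constructs had been introduced against SUPV3L1 (SUV3), a mitochondrial RNA helicase, or PNPT1, the mitochondrial polynucleotide phosphorylase, and 3 libraries were made per knockdown. Neither control cells nor RNA from before the precipitation were analysed here, so a change in the amount of an RNA and a change in its precipitation cannot be told apart, nor can fewer cells in S phase and less histone RNA per cell. The series' text calls the samples biological replicates, and does not say whether 1 hairpin served a whole group.

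Replication-dependent histone genes are switched on as cells enter S phase by NPAT and its partners. Their mRNAs end in a conserved stem-loop in place of a poly(A) tail. The stem-loop binding protein SLBP binds it, the U7 small nuclear ribonucleoprotein directs cleavage just after it, and the mRNAs are destroyed when DNA synthesis stops. Some of the genes also make longer, polyadenylated transcripts. H3 and H4 form the tetramer at the centre of the nucleosome, and dimers of H2A and H2B bind to it on both sides. Many H2A and H2B genes lie head to head and share the DNA between them.

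The stem-loop was read from GENCODE 29 transcripts by the letters GGNNCTNNNNAGNNCC on the sense strand. It was found in 34 of the 69 genes with a transcript, against 5.77% of all 58676 genes and 4.15% of all 206694 transcripts. In 32 of the 34 all 6 positions of the stem paired. The transcript models of 28 genes end with the coding sequence, so no 3′ end was there to search. The examples below, with 5 bases on each side, are shown because the classes differ in the stem. Capitals mark the stem and lower case the loop and flanks.
HIST1H2AI (H2A, chromosome 6): ccaaaGGCTCTtttcAGAGCCaccta
HIST1H2BD (H2B, chromosome 6): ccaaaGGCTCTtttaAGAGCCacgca
HIST1H2BL (H2B, chromosome 6): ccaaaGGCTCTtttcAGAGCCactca
HIST1H3H (H3, chromosome 6): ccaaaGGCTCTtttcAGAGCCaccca
HIST1H4E (H4, chromosome 6): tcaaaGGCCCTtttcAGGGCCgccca
HIST2H4A (H4, chromosome 1): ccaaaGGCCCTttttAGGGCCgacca
Among genes whose 6 pairs all formed, the H2A, H2B and H3 genes had the stem GGCTCT with its complement, and the 8 H4 genes had GGCCCT. The loop differed within a class: 5 H4 genes had tttc and 3 had tttt, while 9 H2B genes had tttc and 3 had ttta.

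Counts assigned to genes ranged from 9378264 to 11361371 in the SUPV3L1 knockdown libraries and from 5852090 to 10464630 in the PNPT1 knockdown libraries. PNPT1 knockdown replicate 3 stood apart. It had the lowest total and 16620 genes with a count, against 20765 to 22393 in the other 5 libraries. Alignments that were not unique made up 80.1% of its entries, against 65.7% to 71.6% in the others. Its TMM scaling factor was 0.669, against 0.988 to 1.21 in the others, and this raises its scaled levels above its plain share of counts. SUPV3L1 RNA was at 12.2, 12.3 and 9.42 CPM (counts scaled to library size with the TMM method) in SUPV3L1 knockdown and 11.5, 18.2 and 25.8 CPM in PNPT1 knockdown, so the groups overlapped. PNPT1 RNA was at 36.3, 27.6 and 21.4 CPM in SUPV3L1 knockdown and 7.66, 18.9 and 17.1 CPM in PNPT1 knockdown, with no overlap. Of 9 myeloid markers 6 had enough counts to test, with summed levels of 867 to 2203 CPM in SUPV3L1 knockdown and 627 to 819 CPM in PNPT1 knockdown, and CD34 had 0 counts in every library. Markers of T cells, B cells, erythroid cells, epithelium and fibroblasts had at most 9 counts summed over each list in any library.

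Core histone RNA was a small part of every library and was most abundant in PNPT1 knockdown replicate 3. The 70 genes had 48565, 28817 and 19772 counts in the SUPV3L1 knockdown libraries and 33309, 53968 and 64747 counts in the PNPT1 knockdown libraries. This was 0.427%, 0.288% and 0.211% of assigned counts in SUPV3L1 knockdown and 0.399%, 0.516% and 1.11% in PNPT1 knockdown. The groups overlapped, since SUPV3L1 knockdown replicate 1 lay above PNPT1 knockdown replicate 1. SUPV3L1 knockdown had a mean of 0.309% ± 0.110 and PNPT1 knockdown a mean of 0.674% ± 0.379 (SD, n = 3 each), a difference of -0.365 percentage points. Without PNPT1 knockdown replicate 3 the PNPT1 knockdown mean was 0.457% and the difference -0.149. That library had 3.01 times the mean share of the other 5, and 3.16 times with mitochondrial genes and a group of abundant clone-named genes taken out of the total. In the deposited FPKM, which are scaled to length, the 70 genes held 0.465%, 0.289% and 0.224% of the summed value in SUPV3L1 knockdown and 0.347%, 0.447% and 0.568% in PNPT1 knockdown. The difference of the means was -0.128 percentage points, and PNPT1 knockdown replicate 3 had 1.60 times the mean of the other 5. With the 66 genes of 1000 FPKM or more taken out of that total, the shares were 5.05%, 3.80% and 3.05% in SUPV3L1 knockdown and 4.41%, 6.84% and 10.3% in PNPT1 knockdown. The difference of the means was then -3.21 percentage points, PNPT1 knockdown replicate 3 had 2.22 times the mean of the other 5, and the groups still overlapped.

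**Figure D1:**
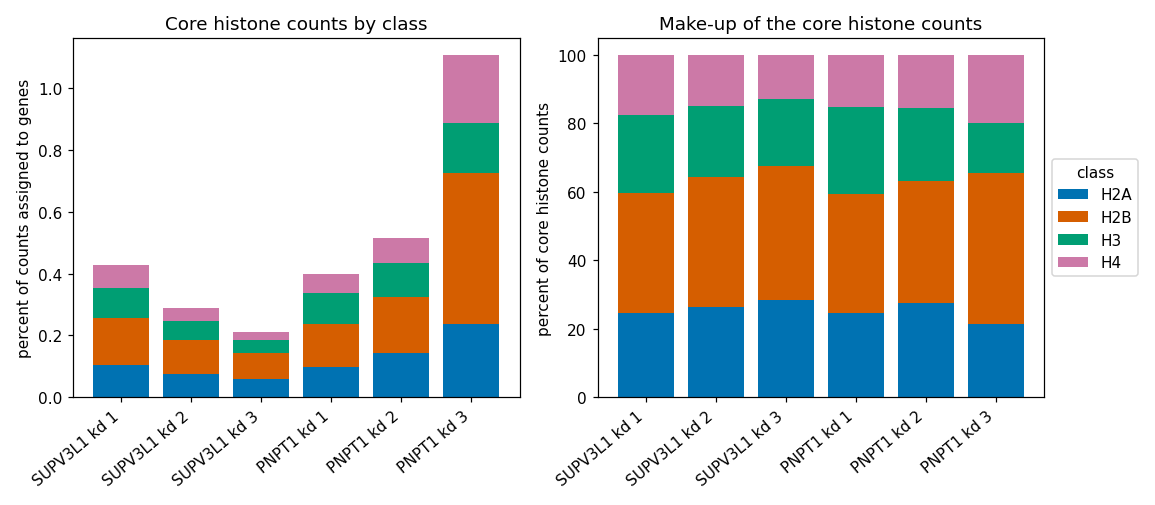
Stacked bars give the counts of the H2A, H2B, H3 and H4 genes in each library as a percent of counts assigned to genes (left) and as a percent of all core histone counts (right). PNPT1 knockdown replicate 3 reaches 1.11% on the left, above the other 5 libraries at 0.211% to 0.516%, and on the right it has the largest H2B and H4 parts and the smallest H2A and H3 parts.

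The make-up by class differed between groups by less than the spread between replicates, and 1 library stood apart. H2B genes held 35.1%, 38.1% and 39.2% of core histone counts in SUPV3L1 knockdown and 35.0%, 35.5% and 44.0% in PNPT1 knockdown. H4 genes held 17.5%, 14.9% and 12.8% in SUPV3L1 knockdown and 15.2%, 15.6% and 19.8% in PNPT1 knockdown. For both classes the highest value was that of PNPT1 knockdown replicate 3, and the other 5 libraries overlapped between groups.

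H2A genes held 24.5%, 26.4% and 28.4% in SUPV3L1 knockdown and 24.5%, 27.7% and 21.5% in PNPT1 knockdown. H3 genes held 22.9%, 20.7% and 19.6% in SUPV3L1 knockdown and 25.3%, 21.3% and 14.8% in PNPT1 knockdown. Here PNPT1 knockdown replicate 3 was the lowest of the 6. The group means were 26.4% ± 1.93 and 24.5% ± 3.11 for H2A, 37.4% ± 2.14 and 38.2% ± 5.09 for H2B, 21.1% ± 1.71 and 20.5% ± 5.33 for H3, and 15.1% ± 2.32 and 16.9% ± 2.52 for H4, each with the SUPV3L1 knockdown mean before the PNPT1 knockdown mean (SD, n = 3). Each difference was smaller than the larger of its SDs. Without PNPT1 knockdown replicate 3, the SUPV3L1 minus PNPT1 knockdown difference was 2.23 percentage points for H2B, against -0.708 with all libraries, and -2.23 for H3, against 0.615. It was 0.344 for H2A and -0.347 for H4.

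Set against assigned counts, each class was higher in PNPT1 knockdown replicate 3 than in any other library. Its H4 share was 3.83 times and its H2B share 3.67 times the mean of the other 5, while its H2A and H3 shares were 2.47 and 2.00 times that mean. By the deposited FPKM, which are scaled to length, H2A was the largest class in each of the 6 libraries. It held 30.2%, 32.8% and 35.4% of core histone FPKM in SUPV3L1 knockdown and 29.5%, 35.1% and 29.9% in PNPT1 knockdown. This order is uncertain, since the H2A sum holds HIST1H2AM, HIST2H2AA3 and HIST2H2AA4. These had means of 258, 220 and 232 FPKM but at most 11 counts in any library. FPKM also depends on the transcript length assumed for each gene. H2B, the largest class by counts, held 21.8%, 24.4% and 24.7% in SUPV3L1 knockdown and 22.3%, 21.6% and 27.8% in PNPT1 knockdown.

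Of the 70 genes, 44 passed the filter on low counts, and each of these had at least 13 counts in every library. By the quasi-likelihood test of edgeR, Benjamini-Hochberg adjusted over every gene tested, 0 of the 44 were called (smallest adjusted p = 0.898). The background was 0% of 13275 genes called. DESeq2 called 0 of the 42 to which it gave an adjusted p, and 18 of the 13275 genes it was run on. It gave none to HIST1H2BJ and HIST1H2BG. Without the filter on low counts edgeR called 19 core histone genes, all lower in SUPV3L1 knockdown, where the background was 0.286% of 28015 genes called lower and 0.667% called in either direction. It called 0 of them without the filter and without PNPT1 knockdown replicate 3. The direction was nonetheless shared: 43 of the 44 had a log2 fold change (SUPV3L1 minus PNPT1 knockdown) below 0, where the background was 49.3% of all genes. The median was -1.40, against 0.01 over all genes, and the range was -2.86 to 0.03. At an unadjusted p under 0.05, 29 were lower in SUPV3L1 knockdown, where the background was 2.39%, and 0 were higher. These genes share regulation and libraries and are not independent of each other.

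PNPT1 knockdown replicate 3 was the highest of the 6 libraries for 41 of the 44 genes, where the background was 30.6%. The median gene had 4.88 times the median level of the other 5 libraries there, a log2 ratio of 2.29, against -0.13 over all genes. With library totals in place of TMM scaling it was the highest for 38 of the 44 genes, where the background was 11.1%, and the median log2 ratio was 1.62. Without this library 40 of 44 fold changes stayed below 0, where the background was 49.1%, but the median was -0.45 and the range -0.94 to 0.71. At an unadjusted p under 0.05 there were then 2 genes, HIST2H2AB and HIST1H2BF, where the background was 1.03%, and 0 passed after Benjamini-Hochberg adjustment in edgeR's test. At the other end, SUPV3L1 knockdown replicate 3 was the lowest of the 6 libraries for 31 of the 44 genes, where the background was 11.4%.

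**Figure D2:**
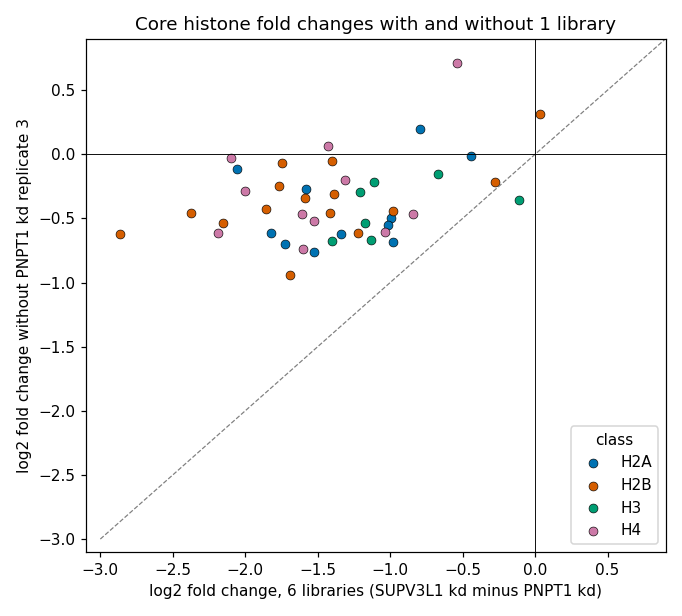
Each point is 1 of 44 tested core histone genes, with the log2 fold change (SUPV3L1 minus PNPT1 knockdown) from 6 libraries on the horizontal axis and without PNPT1 knockdown replicate 3 on the vertical axis, and the dashed line marks equal values. Nearly all points lie above the line, and the median moves to -0.45 without that library, from -1.40 with all.

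By class, all 11 tested H2A genes lay below 0 with a median of -1.34, and 14 of 15 H2B genes with a median of -1.59. All 7 tested H3 genes lay below 0 with a median of -1.13, and all 11 H4 genes with a median of -1.52. Without PNPT1 knockdown replicate 3 the medians were -0.55, -0.42, -0.36 and -0.46 for H2A, H2B, H3 and H4, so the order of the classes was different.

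No overlap between groups was found for 7 of the 44 genes, all lower in SUPV3L1 knockdown, where the background was 3.94%. They were HIST1H2AI, HIST2H2AB, HIST1H2BB, HIST1H2BF, HIST1H2BJ, HIST2H2BC and HIST1H4E. HIST2H2BC was low, with 13 to 29 counts per library. Its identifier has no GENCODE 29 entry, though the name is listed there under another identifier. Genes were matched by identifier, so whether it is a pseudogene was not read.

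Among the H2A genes, whose proteins pair with H2B, HIST1H2AI (ENSG00000196747, plus strand of chromosome 6 from 27808199 to 27808701) had the highest mean FPKM. It was at 254, 124 and 160 CPM in SUPV3L1 knockdown and 261, 290 and 812 CPM in PNPT1 knockdown. The SUPV3L1 knockdown libraries were all below the PNPT1 knockdown libraries, though 254 and 261 CPM nearly meet. Its log2 fold change was -1.34 ± 0.50 (SE, n = 3 per group) and -0.63 without PNPT1 knockdown replicate 3 (edgeR, Benjamini-Hochberg adjusted p = 0.898 with all libraries).

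HIST2H2AB (ENSG00000184270, minus strand of chromosome 1 from 149887524 to 149887916) was the clearest H2A gene by its unadjusted p. It was at 33.5, 27.1 and 34.1 CPM in SUPV3L1 knockdown and 49.7, 57.0 and 167 CPM in PNPT1 knockdown. The gap between the groups did not need the highest library. The log2 fold change was -1.53 ± 0.46 (SE), and -0.76 without PNPT1 knockdown replicate 3. HIST1H2AC was at 99.6, 49.6 and 53.7 CPM in SUPV3L1 knockdown and 89.8, 117 and 514 CPM in PNPT1 knockdown, and HIST1H2AG at 120, 110 and 87.8 CPM in SUPV3L1 knockdown and 109, 201 and 334 CPM in PNPT1 knockdown. In both, SUPV3L1 knockdown replicate 1 lay above PNPT1 knockdown replicate 1.

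The H2B genes held both the widest spread and the exceptions. HIST1H2BJ (ENSG00000124635, minus strand of chromosome 6 from 27125897 to 27132750) was at 45.0, 42.7 and 35.5 CPM in SUPV3L1 knockdown and 49.7, 76.0 and 774 CPM in PNPT1 knockdown. Its groups did not overlap, and its fold change was the furthest from 0 of the 44, at -2.86 ± 0.89 (log2, SE), but -0.62 without PNPT1 knockdown replicate 3. HIST1H2BD (ENSG00000158373, plus strand of chromosome 6 from 26158146 to 26171349) was at 163, 125 and 134 CPM in SUPV3L1 knockdown and 161, 245 and 1472 CPM in PNPT1 knockdown. It was the most counted core histone gene of PNPT1 knockdown replicate 3, with 8.88% of core histone counts there, and its log2 fold change of -2.15 ± 0.73 (SE) was -0.53 without that library.

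HIST1H2BF (ENSG00000277224, plus strand of chromosome 6 from 26199520 to 26200715) had the smallest unadjusted p of the 44 genes, 0.00503 (edgeR, n = 3 per group; Benjamini-Hochberg adjusted p = 0.898). It was at 94.6, 79.7 and 61.5 CPM in SUPV3L1 knockdown and 140, 161 and 462 CPM in PNPT1 knockdown, with a log2 fold change of -1.69 ± 0.48 (SE), which was -0.94 without replicate 3. HIST1H2BK was at 166, 137 and 96.8 CPM in SUPV3L1 knockdown and 124, 190 and 1046 CPM in PNPT1 knockdown. HIST2H2BF was at 209, 122 and 66.3 CPM in SUPV3L1 knockdown and 110, 166 and 1059 CPM in PNPT1 knockdown. For these last 2 genes the log2 fold changes of -1.77 and -1.75 were -0.24 and -0.065 without replicate 3, and the groups overlapped.

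HIST1H2BG, chosen after its values were seen, also had 1 high library, at 33.2, 24.9 and 22.2 CPM in SUPV3L1 knockdown and 31.1, 42.4 and 345 CPM in PNPT1 knockdown. On the deposited FPKM the log2 fold changes were smaller, at -1.70 for HIST1H2BJ, -1.37 for HIST1H2BD, -1.04 for HIST1H2BK and -1.03 for HIST2H2BF. These are differences of group means of log2 of FPKM + 0.1, a measure and scaling unlike those of edgeR. The added 0.1 understates changes of low genes, but the lowest value among these genes was 20.5 FPKM.

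Replicate 3 of the PNPT1 knockdown was not the highest library for HIST1H2BL, HIST1H2BE and HIST2H3D. HIST1H2BL (ENSG00000185130, minus strand of chromosome 6 from 27807444 to 27807931), chosen after its values were seen, was at 220, 120 and 125 CPM in SUPV3L1 knockdown and 147, 212 and 205 CPM in PNPT1 knockdown, a log2 fold change of -0.28 ± 0.35 (SE). HIST1H2BE, the only tested core histone gene above 0, was at 3.62, 3.02 and 8.45 CPM in SUPV3L1 knockdown and 3.18, 4.80 and 6.91 CPM in PNPT1 knockdown, a log2 fold change of 0.03 ± 0.57 (SE). The H3 gene HIST2H3D, also chosen after its values were seen, was at 19.7, 13.8 and 5.52 CPM in SUPV3L1 knockdown and 7.76, 25.6 and 8.44 CPM in PNPT1 knockdown. The groups overlapped for each of the 3.

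**Figure D3:**
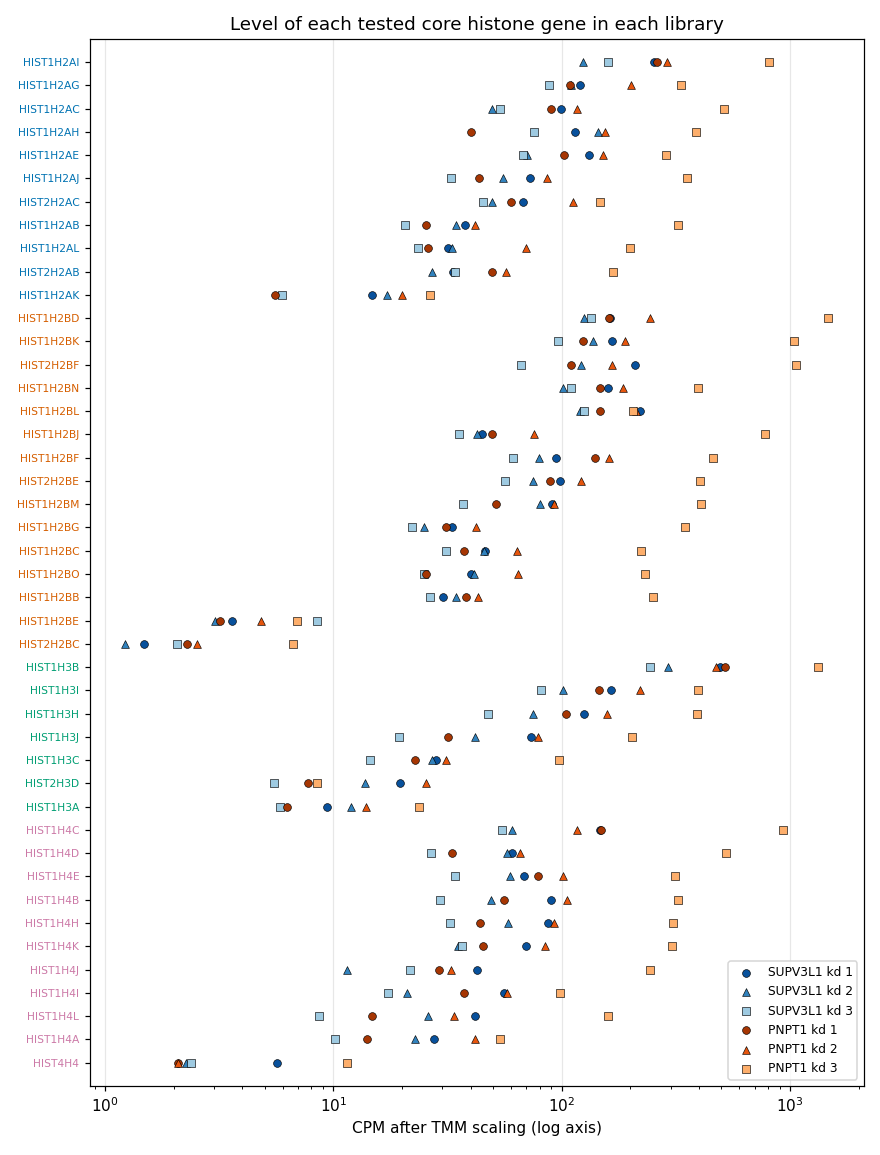
Each row is 1 of the 44 tested core histone genes, grouped by class and ordered by mean level, and each symbol is the CPM after TMM scaling of 1 library on a log axis. The pale orange squares of PNPT1 knockdown replicate 3 lie to the right of the other 5 libraries in 41 rows, and HIST1H2BL, HIST1H2BE and HIST2H3D are the exceptions.

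Among the H3 genes, HIST1H3B (ENSG00000274267, minus strand of chromosome 6 from 26031650 to 26032060) was the most abundant core histone RNA. It had the highest core histone FPKM in each of the 6 libraries, at 911, 533 and 415 FPKM in SUPV3L1 knockdown and 1064, 912 and 1420 FPKM in PNPT1 knockdown. By counts it led in all libraries except PNPT1 knockdown replicate 3. Its level was 493, 291 and 244 CPM in SUPV3L1 knockdown and 520, 472 and 1326 CPM in PNPT1 knockdown, with 1 SUPV3L1 knockdown library above 1 PNPT1 knockdown library. The log2 fold change was -1.17 ± 0.50 (SE), and -0.54 without replicate 3. HIST1H3I was at 165, 102 and 81.0 CPM in SUPV3L1 knockdown and 146, 221 and 395 CPM in PNPT1 knockdown, and HIST1H3H at 125, 74.8 and 47.6 CPM in SUPV3L1 knockdown and 105, 158 and 391 CPM in PNPT1 knockdown. SUPV3L1 knockdown replicate 3 was the lowest library for all 7 tested H3 genes.

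Most H4 genes encode the same protein. PNPT1 knockdown replicate 3 was the highest library for all 11 tested, where the background was 30.6%. Its log2 ratio to the median of the other 5 libraries ranged from 1.24 to 3.19. HIST1H4C (ENSG00000197061, plus strand of chromosome 6 from 26103876 to 26104310) was at 147, 60.5 and 54.7 CPM in SUPV3L1 knockdown and 149, 117 and 927 CPM in PNPT1 knockdown, a log2 fold change of -2.19 ± 0.77 (SE), which was -0.61 without replicate 3. HIST1H4D was at 60.8, 57.4 and 26.7 CPM in SUPV3L1 knockdown and 33.2, 65.4 and 526 CPM in PNPT1 knockdown. Its log2 fold change of -2.1003 ± 0.86 (SE) was -0.032 without replicate 3, so nearly all of it came with that 1 library. HIST1H4E (ENSG00000276966, plus strand of chromosome 6 from 26204552 to 26206038) was at 68.6, 59.6 and 34.2 CPM in SUPV3L1 knockdown and 78.8, 102 and 315 CPM in PNPT1 knockdown, the only one of the 11 tested H4 genes whose groups did not overlap. Its log2 fold change was -1.60 ± 0.53 (SE), and -0.74 without replicate 3. HIST4H4, the gene on chromosome 12, chosen after its values were seen, was at 5.67, 2.26 and 2.38 CPM in SUPV3L1 knockdown and 2.09, 2.096 and 11.5 CPM in PNPT1 knockdown, and its log2 fold change was -0.54 with all libraries and 0.71 without replicate 3.

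Head-to-head H2A and H2B genes share the DNA between them, so the pairs were compared within each library. There were 12 pairs with starts within 500 bases of each other, and both genes were tested in 7, with starts 219 to 331 bases apart. The H2B gene exceeded its H2A partner in the ratio of PNPT1 knockdown replicate 3 to the other libraries in 4 of the 7 pairs, so pairs went both ways. In the pair HIST1H2AG and HIST1H2BJ the CPM of H2B over that of H2A was 0.375, 0.390 and 0.404 in SUPV3L1 knockdown and 0.457, 0.377 and 2.32 in PNPT1 knockdown. In HIST1H2AE and HIST1H2BG it was 0.252, 0.353 and 0.326 in SUPV3L1 knockdown and 0.302, 0.280 and 1.21 in PNPT1 knockdown. In both pairs the CPM of the H2B gene exceeded that of its partner only in replicate 3 of the PNPT1 knockdown. CPM is not scaled to length, so it does not rank the levels of different genes. By the deposited FPKM, HIST1H2BG lay below HIST1H2AE in every library, at 107 against 262 FPKM in PNPT1 knockdown replicate 3. For HIST1H2AI and HIST1H2BL the CPM ratio was instead lowest in that library. It was 0.866, 0.965 and 0.785 in SUPV3L1 knockdown and 0.564, 0.732 and 0.253 in PNPT1 knockdown. These 3 pairs were chosen after their values were seen.

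The promoters were read from RefSeq (GRCh38.p14), which matched 55 of the 70 genes, and 3 motifs were searched on both strands of the 250 bases before the start. The octamer ATTTGCAT, which the factor OCT1 (POU2F1) binds in H2B promoters, was in 14 of 18 H2B and 11 of 14 H2A promoters and in 0 of 10 H3 and 0 of 13 H4 promoters. It was in 1.63% of all 35116 promoters. Head-to-head genes share much of this window, so the H2A and H2B counts are not separate. CCAAT was in 14 of 14 H2A, 18 of 18 H2B, 10 of 10 H3 and 3 of 13 H4 promoters, against 32.0% of all promoters. TATAAA was in 10 of 14 H2A, 12 of 18 H2B, 9 of 10 H3 and 7 of 13 H4 promoters, against 10.7%. The 60 bases before the start are shown for 3 H2B genes that were high in PNPT1 knockdown replicate 3 and for HIST1H2BL, which was not. Capitals mark the octamer and TATAAA, and each gene is on the minus strand.
HIST1H2BJ, chr6:27132796-27132855: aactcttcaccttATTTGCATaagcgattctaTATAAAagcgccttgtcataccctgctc
HIST1H2BG, chr6:26216689-26216748: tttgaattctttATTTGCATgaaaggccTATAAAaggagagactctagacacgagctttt
HIST1H2BK, chr6:27146856-27146915: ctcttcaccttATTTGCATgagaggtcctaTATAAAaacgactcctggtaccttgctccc
HIST1H2BL, chr6:27807930-27807989: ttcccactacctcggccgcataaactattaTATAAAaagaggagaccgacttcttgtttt
The octamer stands before TATAAA in the first 3 sequences and is not among the letters of the last. Across tested H2B genes with a promoter, the log2 ratio of PNPT1 knockdown replicate 3 to the median of the other libraries had a median of 2.53 in the 11 genes with the octamer (range 0.93 to 4.10). In the 3 without it (HIST1H2BD, HIST1H2BL and HIST1H2BN) the median was 1.43 (range 0.48 to 3.19). The ranges overlapped, HIST1H2BD without the octamer reaching 3.19, and a match of letters shows no binding.

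Short genes in general were high in PNPT1 knockdown replicate 3, and core histone mRNAs are short. Genes at a typical level of 10 CPM or more across the other 5 libraries, not necessarily in each, were grouped by their longest GENCODE 29 transcript. Up to 600 bases, the median log2 ratio of that library to the median of the other 5 was 2.32 in 26 core histone genes and 1.29 in 57 other genes. From 600 to 1000 bases it was 3.19 in 3 core histone genes and 1.25 in 140 other genes. From 1000 to 2000 bases it was 2.29 in 7 core histone genes and 0.59 in 841 other genes, and from 2000 to 4000 bases 2.18 in 3 core histone genes and 0.19 in 2852 other genes. Other genes over 4000 bases had a median of -0.16 (4069 genes). Among other genes the median ratio was thus lower in longer genes, and the core histone median lay above that of other genes in each of these 4 length groups. The longest model need not be the RNA present in the cells, and the part of length in the core histone difference was not tested.

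**Figure D4:**
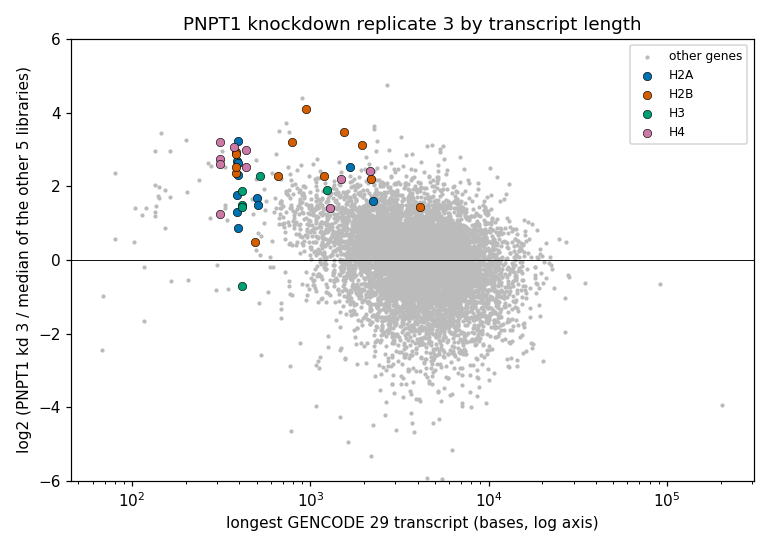
Each point is a gene at a typical level of at least 10 CPM across the other 5 libraries, not necessarily in each. Its longest GENCODE 29 transcript in bases (log axis) is set against the log2 ratio of PNPT1 knockdown replicate 3 to the median of the other 5. Core histone genes are coloured by class and 4 other genes with ratios below the axis are not drawn, and up to 600 bases the median is 2.32 for core histone genes and 1.29 for other genes.

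The 26 genes that were not tested had at most 11 counts in any library. Of these, 8 had 0 counts in all 6 libraries, 10 had 1 to 10 counts in sum and 8 had more. Low counts did not always mean low FPKM: 8 of the 26 had a mean of 20 FPKM or more. HIST2H2AA3 had 7, 6 and 5 counts in SUPV3L1 knockdown and 4, 11 and 9 counts in PNPT1 knockdown, yet 194, 180 and 107 FPKM in SUPV3L1 knockdown and 118, 291 and 431 FPKM in PNPT1 knockdown. Its copy HIST2H2AA4 was at 202, 187 and 112 FPKM in SUPV3L1 knockdown and 127, 309 and 453 FPKM in PNPT1 knockdown. The coding sequences of this pair, 390 bases long, had 0 differences, as did HIST2H3A and HIST2H3C (408 bases) and HIST2H4A and HIST2H4B (309 bases).

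The other HIST2 copies were lower. HIST2H3C was at 44.2, 36.3 and 23.1 FPKM in SUPV3L1 knockdown and 29.3, 65.5 and 88.2 FPKM in PNPT1 knockdown, and HIST2H3A was within 3 FPKM of it in every library. HIST2H4A was at 35.0, 27.0 and 11.2 FPKM in SUPV3L1 knockdown and 18.8, 55.4 and 41.2 FPKM in PNPT1 knockdown. Groups overlapped in all of these copies, and reads that align equally well to both copies give no counts. HIST1H4J and HIST1H4K, chosen after their values were seen, also have identical coding sequences and had 122 to 520 and 339 to 848 counts in SUPV3L1 knockdown and 292 to 953 and 455 to 1191 counts in PNPT1 knockdown, so an identical copy did not always leave a gene without counts. Of the 64 genes with a coding sequence, 8 had an identical one elsewhere among them, and the values of all 8 are uncertain.

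A further pair of genes, chosen after their values were seen, had no such copy. HIST1H2AM had at most 1 count and was at 180, 27.8 and 115 FPKM in SUPV3L1 knockdown and 190, 310 and 728 FPKM in PNPT1 knockdown. HIST1H3D had 0 counts in every library and was at 81.2, 60.5 and 24.5 FPKM in SUPV3L1 knockdown and 40.6, 95.9 and 124 FPKM in PNPT1 knockdown. In GENCODE 29 HIST1H2AM overlaps HIST1H3J and HIST1H3D overlaps AL031777.3, each on the same strand, and the part of overlap in these values was not tested.

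**Figure D5:**
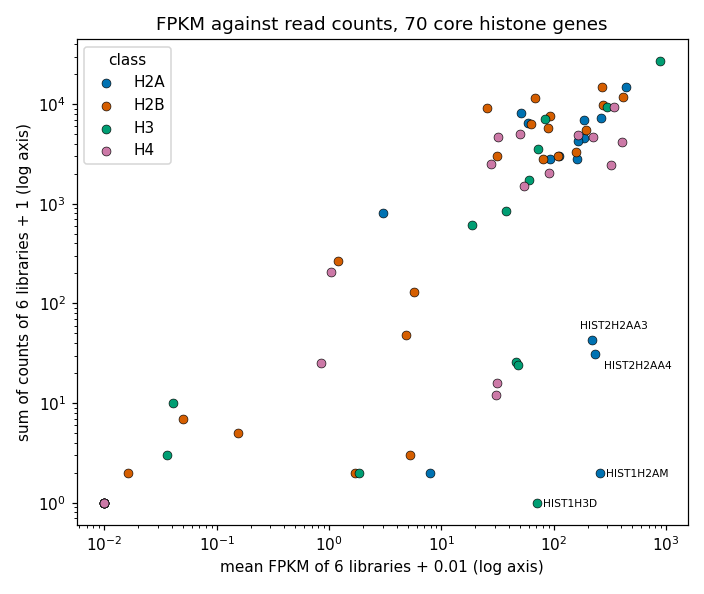
Each point is 1 of the 70 core histone genes, with the mean FPKM of the 6 libraries plus 0.01 against the sum of counts plus 1, both on log axes. HIST1H2AM, HIST1H3D, HIST2H2AA3 and HIST2H2AA4 lie far to the right with few or no counts.

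The factors that make and degrade histone mRNAs had a median near 0. Of 29 factors of histone mRNA synthesis and decay, 28 were tested, 0 passed edgeR's test after Benjamini-Hochberg adjustment in either direction, and 16 were below 0 with a median log2 fold change of -0.10 (0.03 without PNPT1 knockdown replicate 3). SLBP was at 37.0, 43.7 and 28.4 CPM in SUPV3L1 knockdown and 23.7, 37.1 and 39.4 CPM in PNPT1 knockdown, and NPAT at 35.5, 33.6 and 28.5 CPM in SUPV3L1 knockdown and 28.1, 35.2 and 21.0 CPM in PNPT1 knockdown. Groups overlapped for both, which were chosen after their values were seen. SNRPG, a small protein of the Sm ring, was at 31.0, 28.7 and 19.8 CPM in SUPV3L1 knockdown and 20.01, 25.8 and 120 CPM in PNPT1 knockdown, with a log2 fold change of -1.05, and of 0.21 without replicate 3. SNRPF, another Sm protein, had -0.89 and 0.032.

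Core histone variant genes outside the HIST names lay with the core histone genes in direction. Of 10, 8 were tested, all 8 were below 0 with a median of -0.76, and 0 passed. PNPT1 knockdown replicate 3 was the highest library for 7 of the 8, where the background was 30.6% of all genes. It was also the highest for 15 of the 28 tested synthesis and decay factors, 6 of 16 histone chaperones and 11 of 29 S phase genes. Without that library the median of the 8 variants was -0.19. H3F3A, which encodes the H3.3 variant, was at 101, 136 and 98.9 CPM in SUPV3L1 knockdown and 128, 143 and 608 CPM in PNPT1 knockdown, a log2 fold change of -1.38 and of -0.28 without replicate 3. H3F3B, which encodes the same variant, had -1.14 and -0.15. Both H3.3 mRNAs were highest in PNPT1 knockdown replicate 3, and the reason was not tested.

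Of 17 histone chaperones, which carry histones to DNA, 16 were tested, 4 were below 0 with a median of 0.10 (0.14 without PNPT1 knockdown replicate 3), and 0 passed. For RBBP7, a histone-binding subunit of several complexes, the log2 fold change was -0.74 ± 0.41 (SE), and SUPT16H, a subunit of the FACT complex, had 0.51 ± 0.36 (SE). All 29 genes of S phase and DNA replication were tested, 14 were below 0 with a median of 0.000153 (0.19 without replicate 3), and 0 passed. CDT1, which licenses replication origins, was at 39.0, 38.0 and 35.9 CPM in SUPV3L1 knockdown and 55.9, 76.0 and 99.3 CPM in PNPT1 knockdown, with no overlap. Its log2 fold change was -1.03 ± 0.31 (SE), and -0.81 without replicate 3. GMNN, the inhibitor of CDT1, had -0.81 ± 0.46 (SE), and -0.16 without replicate 3. The share of cells in S phase was not measured, and its part in the core histone levels was not tested.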

How the data were processed

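The deposited read counts cover 60675 genes in each of 6 libraries, 3 per knockdown. The submitters' processing notes name HTSeq, StringTie 2.1.4, HISAT2 2.2.1 and SAMtools 1.14, with GRCh38. Not given in the sources used here are the annotation release, the strand setting of HTSeq and the tool behind the FPKM table deposited by the authors. Reads of the opposite strand may therefore be counted for a gene. Members were found by name in the FPKM table and joined to the counts by gene identifier. Summary lines of unassigned reads were left out.

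The test was edgeR's quasi-likelihood test (edgeR 4.0.16, R 4.3.3) with TMM scaling, its standard filter (at least 10 counts, scaled to library size, and 15 in total), Benjamini-Hochberg adjustment over 13275 genes and a threshold of 0.05. Each SE of a log2 fold change was derived from this test, as the absolute log2 fold change over the square root of its F statistic. The fit was tested on simulated data. DESeq2 1.42.0 and limma 3.58.1 on log2 of FPKM + 0.1 were alternatives, with other scalings, filters and each library left out. Scaling by library totals, and leaving out PNPT1 knockdown replicate 3 without the filter, were chosen after seeing the data. Replicates were numbered in accession order.

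The core histone genes and gene lists were chosen with earlier results of these data known. Named genes were those with the 3 highest mean CPM per class, the 3 smallest p-values in each direction, the 3 highest mean FPKM, the HIST2 copies, the 2 smallest p-values of each list and the targeted genes, and any other gene given with its levels is marked in the text as picked with its values known. Precision of shares is limited mainly by the spread between libraries and their number. Counting error was small beside it. For the core histone share of PNPT1 knockdown replicate 3 the 95% counting interval was 1.098% to 1.115%, against a PNPT1 knockdown SD of 0.379.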

Additional observations from a re-analysis of the deposited data

How the results depend on the processing

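Of 362 values with an adjusted p for the 26 named and tested genes under 14 alternatives, 346 kept direction and side of the threshold, 6 reversed and 10, all without the expression filter, passed it. The number of genes called was 18 with DESeq2 and 187 without the filter. Of the 187, 80 were lower in SUPV3L1 knockdown (0.286% of 28015 genes), and 19 of these 80 were core histone genes. The number was 130 without the filter and PNPT1 knockdown replicate 3 (0 core histone genes). When each library was left out it was 0 to 1 (0 to 0 core histone genes). The core histone median log2 fold change of -1.40 ranged from -1.79 to -0.45 when each library was left out, and was -0.44 without the filter and PNPT1 knockdown replicate 3, -1.003 on FPKM and -1.05 with library totals. On FPKM the median of all genes was 0.17. With mitochondrial and clone-named genes out of the total, the difference of the core histone share was -0.675 percentage points, and with genes of 1000 FPKM or more out of the FPKM total it was -3.21, against -0.365 and -0.128 with the full totals. HIST1H2BJ had no adjusted p in DESeq2 and was left out there. Leaving out each library, the differences ranged from -0.502 to -0.149 for the core histone share, -0.198 to -0.0712 for the FPKM share, 0.344 to 3.45 for H2A, -2.31 to 2.23 for H2B, -2.23 to 3.06 for H3 and -3.005 to -0.347 for H4. HIST1H2BE reversed to -0.56 and -0.22 without SUPV3L1 knockdown replicate 3 or PNPT1 knockdown replicate 1 (range -0.56 to 0.32). SNRPF and SNRPG reversed to 0.032 and 0.21 without PNPT1 knockdown replicate 3, and to 0.043 and 0.22 also without the filter (ranges -1.25 to 0.032 and -1.46 to 0.21). The causes were not tested. No paired analysis was possible because the labels give the groups no shared replicate numbers. Of the 70 genes, 26 were too low in counts to test.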
